A study of Mus musculus with 20 samples.

Results

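The 10 genes Acta2, Tagln, Pdgfra, Pdgfrb, Tgfb1, Ccn1, Ccn2, Fn1, Postn and Vim, a set of myofibroblast, PDGF receptor, TGF-beta and CCN genes, were followed in poly(A) RNA of mouse libraries. They and the gene lists used below were chosen by name, with earlier results of these data known. All 10 were present among the 25700 gene identifiers counted. All 10 also passed the filter on low counts that left 15430 genes for testing. The 20 libraries form 4 groups of 5. Libraries titled Control came from untreated mice without oxalate and those titled Control_late from such mice on alkali therapy. Libraries titled Oxalate came from untreated oxalate mice and those titled Oxalate_late from oxalate mice on alkali therapy. The alkali is described for the series as bicarbonate and the disease as crystal nephropathy, kidney damage caused by crystals. The labels give no strain, age, tissue, oxalate dose or duration. Both alkali groups carry the word "late" and neither untreated group does. It is not explained, so alkali and a later time of sampling cannot be told apart. Whether the libraries of a group came from separate mice is not stated either. Each p-value therefore tests against differences among libraries only, some of which may be technical.

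Total counts ran from 25547840 to 39550689 per library. The 8 kidney tubule markers listed, Kap, Umod and Lrp2 among them, summed to between 18150 and 53810 CPM (read counts scaled to a common library size) in every library. None of the 8 was at 0 in any group, and Kap alone had a mean of 36300 CPM in untreated controls. Levels below are CPM after TMM scaling, which corrects library totals for differences in composition.

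Myofibroblasts are contractile, matrix-producing cells that appear in scarring kidneys, mostly from fibroblasts and pericytes around the tubules. TGF-beta is released in a latent form, is freed by integrins and proteases, and signals through a receptor kinase pair to SMAD proteins, which switch on matrix genes. PDGF ligands act on the receptors PDGFR-alpha and PDGFR-beta of the same cells. CCN1 and CCN2 are secreted matricellular proteins whose genes respond quickly to TGF-beta, to mechanical strain through YAP and TEAD, and to serum factors.

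Oxalate without alkali came with higher levels of the whole set. All 10 genes were called higher than in untreated controls (adjusted p under 0.05, edgeR's quasi-likelihood test with Benjamini-Hochberg adjustment over all 15430 genes), in a comparison that called 26.4% of all genes tested higher and 49.4% in either direction. Their median log2 change was 1.44 against a median of -0.00 over all genes tested. Fn1 and Vim changed most, 8.76-fold and 6.65-fold, and Acta2 and Ccn1 least, 1.74-fold and 1.75-fold. For 7 of the 10 genes, all but Ccn1, Ccn2 and Postn, every untreated oxalate library lay above every untreated control, which held for 18.5% of all genes. In bulk RNA, more cells of a type and more RNA per cell cannot be told apart.

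On alkali, 8 of the 10 genes were called higher in oxalate than in control mice, against 23.4% of all genes tested, with 40.4% called in either direction. The exceptions were Ccn1 and Ccn2. The median log2 change of the set was 1.13, against 0.02 over all genes. Every alkali-treated oxalate library lay above every alkali-treated control for Pdgfra, Pdgfrb, Tgfb1, Fn1 and Vim, 5 of the 10, against 10.8% of all genes; none of the 10 lay wholly below, against 5.51%. Total-count scaling, without the TMM factors, moved the share of higher calls among all calls from 53.3% to 85.1% without alkali and from 57.8% to 85.6% on alkali, with the counts of 10 and 8 members unchanged.

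Within oxalate mice, alkali came with lower Ccn1 and, less firmly, lower Vim. These 2 of the 10 genes were called lower and none higher, where 2.33% of all genes were called lower, 1.76% higher and 4.08% in either direction. The call of Ccn1 held under all 29 alternative settings, and that of Vim under 12 of 29. The set's median log2 change was -0.38 and that of all genes 0.01. Ccn1 alone lay wholly below in the alkali-treated libraries, against 1.61% of all genes, and no member wholly above, against 1.91%. This comparison uses the same untreated oxalate libraries as the first one, so the 2 sets of changes are not independent. In control mice no member was called between alkali and untreated libraries, with log2 changes from -0.31 to 0.15 and none at an unadjusted p under 0.05. The 2 control groups overlapped for all 10 genes, where 0.557% of all genes lay wholly above and 0.467% wholly below on alkali. For Ccn1 the overlap rested on library 27 of the alkali-treated controls, at 71.0 CPM. The other alkali-treated controls read 29.1 to 35.3 CPM, below the 38.6 to 63.9 CPM of untreated controls. The comparison within controls called 0 of all genes, 389 of which had an unadjusted p under 0.05, while DESeq2 called 3 and limma-voom 0.

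**Figure D1:**
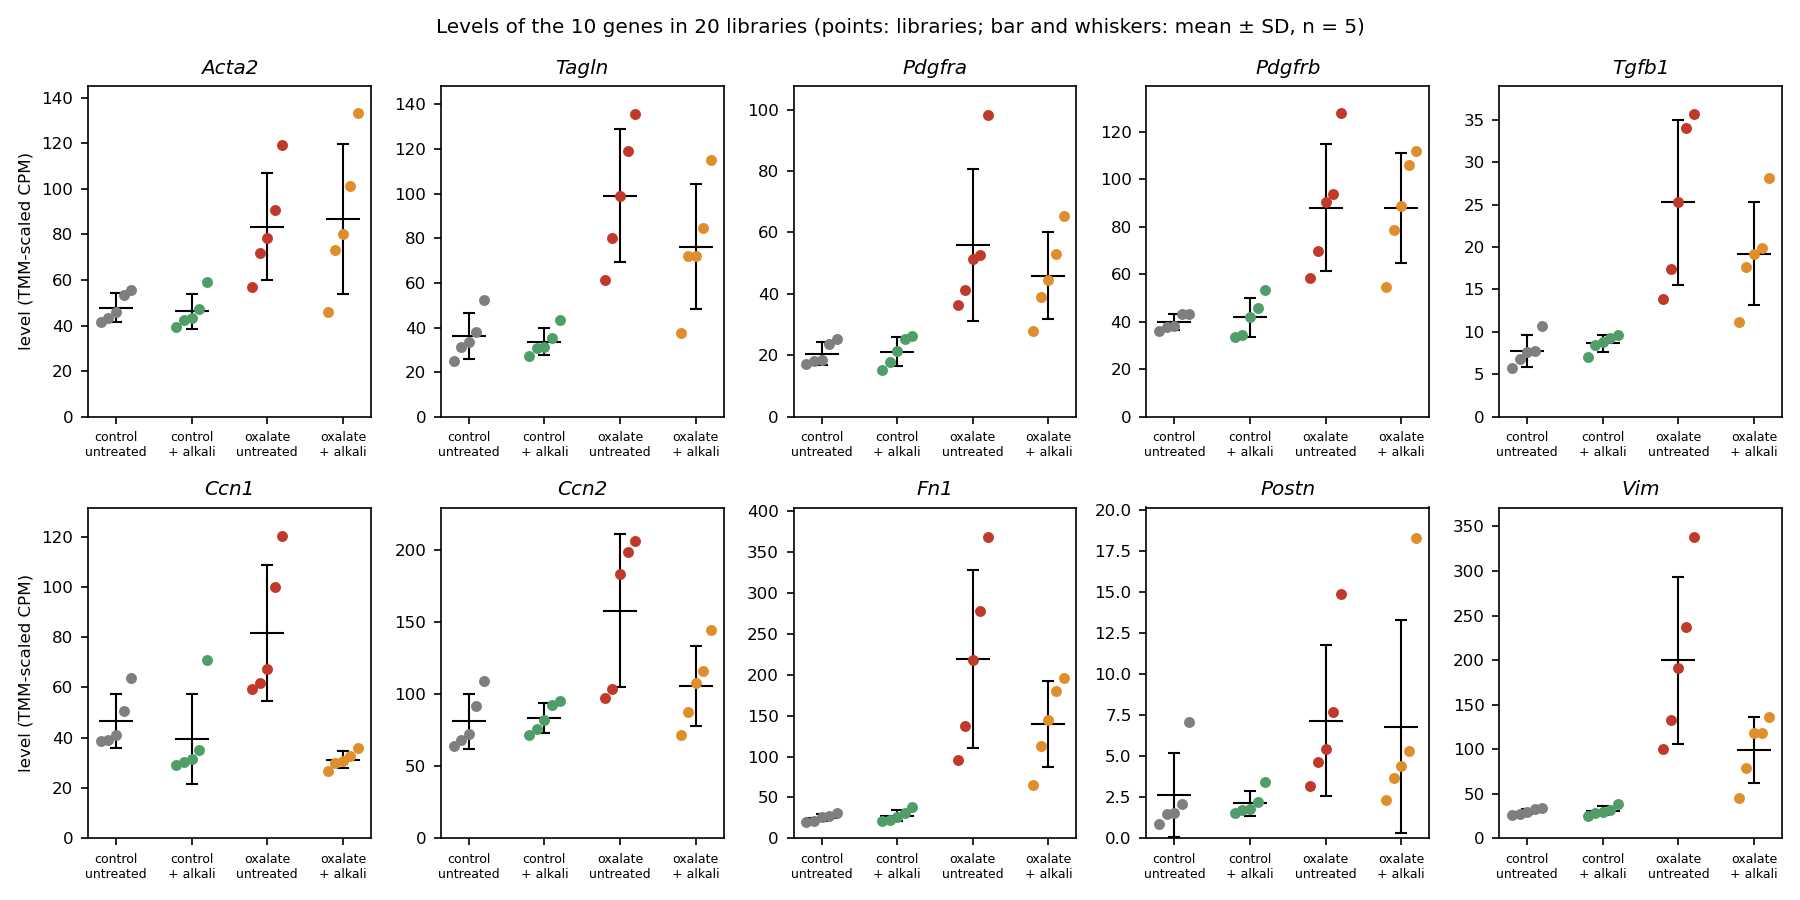
Level of each gene in TMM-scaled CPM (linear axis from 0) in each of the 20 libraries, by group; points are libraries sorted by value within a group, and lines and whiskers are mean ± SD (n = 5). The 5 alkali-treated oxalate libraries sit between 26.9 and 35.8 CPM for Ccn1, below all 5 untreated oxalate libraries, while for Pdgfrb the means of the 2 oxalate groups are 88.2 and 88.0.

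**Figure D2:**
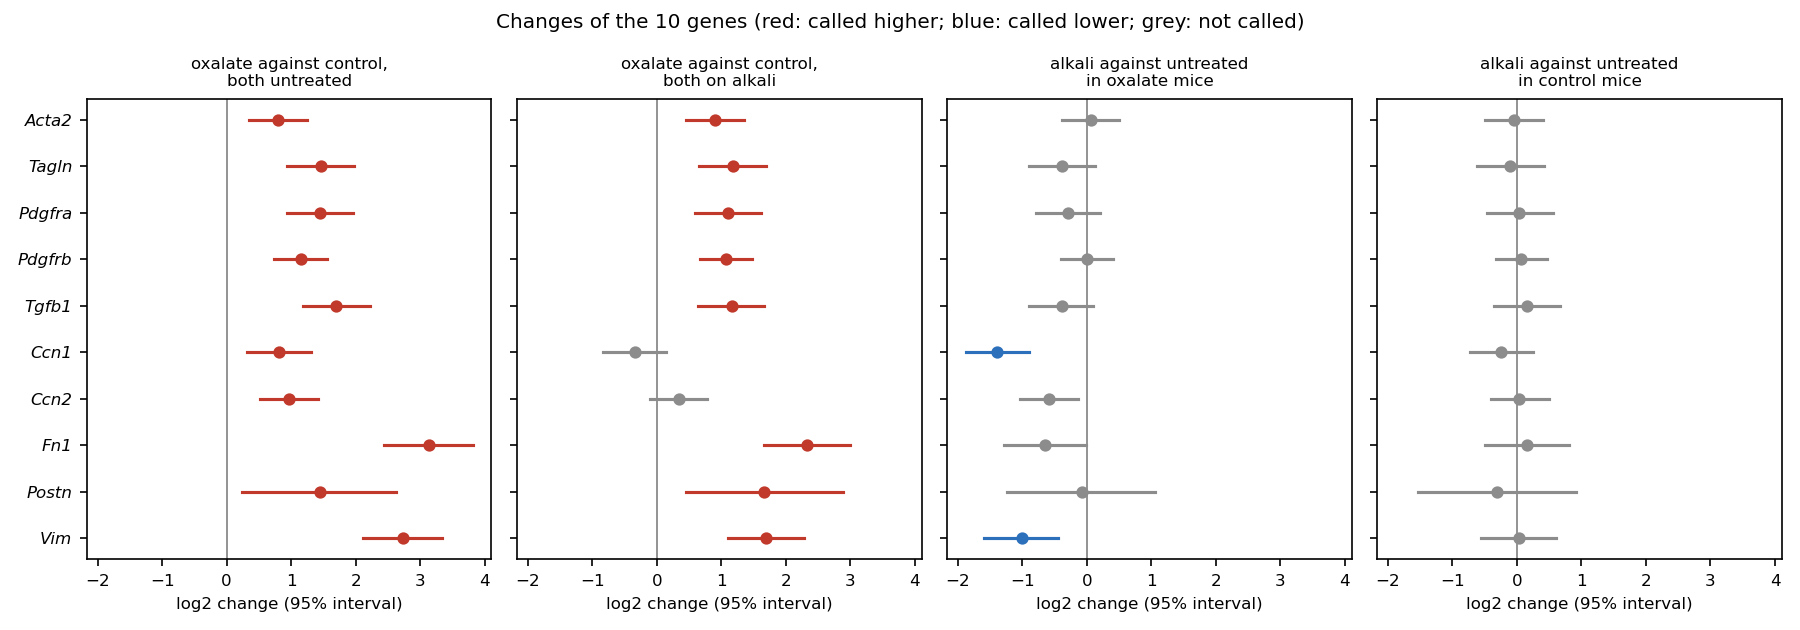
Log2 change of each gene with its 95% interval in 4 comparisons, coloured by whether it was called at an adjusted p under 0.05. All 10 points are red for oxalate without alkali, and in the comparison of alkali with untreated oxalate mice only Ccn1 and Vim are blue.

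Acta2 and Tagln belong to the contractile apparatus. Acta2 encodes smooth muscle alpha-actin, the usual marker of myofibroblasts and of vessel wall muscle (chromosome 19, 34241090 to 34255590, minus strand, GRCm38). It read 41.4, 45.8, 55.8, 43.5 and 53.2 CPM in untreated controls and 47.5, 42.5, 43.2, 59.2 and 39.5 CPM in alkali-treated controls. Untreated oxalate libraries read 90.9, 78.6, 56.9, 71.8 and 119 CPM, and alkali-treated ones 45.8, 73.1, 134, 80.4 and 101 CPM. Every untreated oxalate library was above every untreated control, the lowest by a narrow margin, whereas the lowest alkali-treated oxalate library fell within the range of its controls. The log2 change was 0.80 ± 0.22 (SE; adjusted p = 0.00492) without alkali and 0.91 ± 0.22 (adjusted p = 0.00428) with it. With alkali in oxalate mice it was 0.06 ± 0.21 (adjusted p = 0.917), with a 95% interval from 0.762-fold to 1.42-fold.

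Tagln, for transgelin, an actin-binding protein of smooth muscle (chromosome 9, 45929619 to 45936058, minus strand), ranged from 25.1 to 52.5 CPM in untreated controls and from 61.4 to 136 CPM in untreated oxalate libraries. It rose by a log2 change of 1.46 ± 0.25 (adjusted p = 0.00012) without alkali and 1.18 ± 0.25 (adjusted p = 0.00184) on alkali. The alkali-treated oxalate libraries, 37.5 to 115 CPM, overlapped the untreated ones, and their log2 difference of -0.38 ± 0.25 was not called (adjusted p = 0.406). Exons of Tagln overlap those of Pcsk7 on the opposite strand and exons of Pdgfra overlap Gm42803. The strand setting of the counting is not given in the sources used here, so reads of these pairs cannot be told apart.

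Other actins share long stretches of sequence with Acta2, so its reads could be split among them, which was not measured. Actb, the main cytoplasmic actin, was called higher in oxalate without alkali (log2 change 0.82 ± 0.13, adjusted p = 5.77e-05) and lower with alkali in oxalate mice (-0.49 ± 0.13, adjusted p = 0.0386). Actg1, the other cytoplasmic actin, was lower with alkali by -0.58 ± 0.13 (adjusted p = 0.0224), while Acta2 stood at 0.06. The call of Actb was lost under 11 of the 29 alternatives and that of Actg1 under 4, the fit of the 2 oxalate groups alone among them (adjusted p = 0.234 and 0.151). Actg2, the smooth muscle gamma-actin, had group means from 0.305 to 0.818 CPM. It was not called in oxalate without alkali (log2 change -0.22 ± 0.86) or between the oxalate groups (0.85 ± 0.83). The skeletal and cardiac actins Acta1 and Actc1 reached at most 0.415 and 0.103 CPM in any library and were not tested.

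The contractile smooth muscle list holds 16 further genes. Of these, 7 were called higher and 0 lower in oxalate without alkali, with a median log2 change of 0.45. Over all genes tested, 26.4% were called higher and 23.1% lower without alkali, and 23.4% and 17.1% on alkali. Cnn2, a calponin found also outside muscle, was highest at 1.39 ± 0.20, followed by Tpm1, a tropomyosin, at 1.03 ± 0.16, Des, for desmin, at 0.91 ± 0.22 and Mrtfa, a coactivator of serum response factor, at 0.85 ± 0.16. Myh11, the smooth muscle myosin heavy chain, was among the 9 not called (0.07 ± 0.21, adjusted p = 0.798). So were Cnn1 (0.30 ± 0.36), Smtn (0.05 ± 0.18), Lmod1 (-0.10 ± 0.21) and Mylk (-0.19 ± 0.12). On alkali 8 were called higher, among them Synpo2, a synaptopodin relative, at 2.01-fold and Des at a log2 change of 1.19 ± 0.22. That count was 5 without library 27 or 37 of the alkali-treated controls, or 33 or 8 of the alkali-treated oxalate group. With alkali in oxalate mice 0 of 16 were called, with a median of 0.08 and 10 of 16 above 0. The count without alkali was 10 when the 6 libraries with Adipoq above 1 CPM were left out.

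Stretches of the RefSeq promoter window of Acta2 are shown because serum response factor, TEAD and SMAD sites are the textbook elements of this gene group. Promoter windows of 300 bases (RefSeq, GRCm38.p6) were found for 6 of the 10 genes, 2 of them for Postn. The motifs searched on both strands were GGAATG (TEAD), CAGAC (SMAD), TGANTCA (AP-1) and the CArG box of serum response factor, also with 1 letter of its core allowed to be other than A or T. The Acta2 window held GGAATG, a motif in 14.7% of all 32851 windows, 146 bases before the RefSeq start. It also held a SMAD match 235 bases before that start, a motif in 49.6% of windows. It held 2 CArG-like boxes with that 1 free letter, found in 9.98% of windows, 84 and 34 bases before the start, and no strict CArG box (1.63% of windows). The GENCODE start of Acta2, at 34255590, lies upstream of the RefSeq start. The stretches shown therefore lie inside the GENCODE gene, and they precede the RefSeq start only. Capitals mark the matches, 5′ to 3′ on the minus strand.
Acta2 TEAD match, chr19:34255502-34255531: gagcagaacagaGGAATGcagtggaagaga
Acta2 CArG-like match, chr19:34255438-34255467: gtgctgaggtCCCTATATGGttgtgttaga
Acta2 CArG-like match, chr19:34255388-34255417: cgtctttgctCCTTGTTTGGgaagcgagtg
These are matches of letters, and binding was not measured.

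Pdgfra and Pdgfrb encode the PDGF receptor kinases that mark kidney fibroblasts, pericytes and mesangial cells. Pdgfra (chromosome 5, 75152292 to 75198215, plus strand) ranged from 17.2 to 25.4 CPM in untreated controls and from 15.3 to 26.2 CPM in alkali-treated controls. It ranged from 36.4 to 98.4 CPM in untreated oxalate libraries and from 28.0 to 65.4 CPM in alkali-treated ones. Both oxalate groups lay wholly above their controls and overlapped each other. Its log2 change was 1.44 ± 0.25 (adjusted p = 0.000113) without alkali and 1.11 ± 0.25 (adjusted p = 0.00241) on alkali.

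Pdgfrb (chromosome 18, 61045150 to 61085061, plus strand) had the narrowest spread of the set in untreated controls relative to its mean, 39.8 ± 3.28 CPM (SD, n = 5). It stood at 41.9 ± 8.20 CPM in alkali-treated controls. The oxalate groups stood at 88.2 ± 26.6 without alkali and 88.0 ± 23.0 CPM with it (SD, n = 5). It rose by a log2 change of 1.15 ± 0.19 (adjusted p = 0.000105) without alkali and by 1.07 ± 0.19 (adjusted p = 0.000556) on alkali. Between the oxalate groups the interval ran from 0.757-fold to 1.32-fold around 0.998-fold (adjusted p = 0.997).

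Of the 5 genes on the PDGF ligand list, Pdgfa, Pdgfb and Pdgfrl were called higher in oxalate without alkali (log2 changes 1.13 ± 0.15, 1.27 ± 0.17 and 2.98 ± 0.51) and Pdgfc lower (-0.38 ± 0.12, adjusted p = 0.0114, not called under total-count scaling). Pdgfrl is named for its likeness to the receptor and is no ligand. Pdgfd was not called (-0.02). Over all genes tested, 26.4% were called higher and 23.1% lower in that comparison. Alkali in oxalate mice came with lower Pdgfa, by -0.70 ± 0.15 (adjusted p = 0.0123), and lower Pdgfb, by -0.68 ± 0.16 (adjusted p = 0.0253). Pdgfa read 20.1 to 33.5 CPM without alkali and 13.1 to 19.9 with it, and Pdgfb 38.0 to 74.1 and 25.9 to 37.3. The oxalate groups did not overlap for either gene, which held for 1.61% of all genes in this direction. Both calls were lost in the fit of the 2 oxalate groups alone (adjusted p = 0.12 and 0.154), and that of Pdgfb also without library 12 or 3 of the untreated or 30 of the alkali-treated oxalate group.

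Tgfb1, the main TGF-beta ligand gene in kidney scarring (chromosome 7, 25687002 to 25705077, plus strand), read 5.76, 10.7, 7.80, 6.82 and 7.65 CPM in untreated controls. Alkali-treated controls read 9.66, 9.23, 8.80, 8.47 and 7.04 CPM. Untreated oxalate libraries read 35.6, 25.3, 13.9, 17.4 and 34.1 CPM and alkali-treated ones 11.2, 17.7, 19.9, 19.2 and 28.1 CPM. Each oxalate group lay above its controls, and the 2 oxalate groups overlapped. Its log2 change was 1.70 ± 0.25 (adjusted p = 2.18e-05) without alkali and 1.16 ± 0.25 (adjusted p = 0.00184) on alkali. With alkali in oxalate mice it was -0.39 ± 0.24 (adjusted p = 0.37), with an interval from 0.54-fold to 1.08-fold.

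Other ligands, activators and receptors of the TGF-beta pathway form a list of 17 genes, of which 11 were called higher and 2 lower in oxalate without alkali (median log2 change 0.58). Over all genes tested 26.4% were called higher and 23.1% lower. Mmp14, a membrane protease, rose by 3.02 ± 0.28 and Ltbp2, of the latent TGF-beta binding protein family, by 4.99 ± 0.53. Tgfb2 rose by 1.87 ± 0.22 and Tgfb3 by 1.54 ± 0.24. The 2 that fell were the epithelial integrin genes Itgb6 (-0.70 ± 0.15) and Itgb8 (-0.75 ± 0.23), whose products free latent TGF-beta. Itgb8 was not called under total-count scaling, which called 15 of the 17 higher. Against 23.4% and 17.1% of all genes, 8 of the 17 were called higher on alkali and 2 lower. The latter count was 1 under total-count scaling or without library 1 or 27 of the alkali-treated controls or 30, 33, 5 or 8 of the alkali-treated oxalate group, and 0 without the 6 Adipoq libraries. Between the oxalate groups Tgfbr1, the type I receptor, fell by 0.46 ± 0.11 (adjusted p = 0.0237) and Thbs1, thrombospondin, by 0.84 ± 0.21 (adjusted p = 0.0293). No other member of the list was called, and neither call held in the fit of the 2 oxalate groups alone (adjusted p = 0.193 and 0.216). The call of Tgfbr1 was also lost without library 40 of the untreated or 30 or 8 of the alkali-treated oxalate group, and that of Thbs1 without 12 or 3 of the first or 2, 30 or 8 of the second. The count of 2 was 6 without library 32 of the untreated oxalate group.

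SMADs and their regulators moved less. Of 12 genes, 4 were called higher and 1 lower without alkali, with a median log2 change of 0.23. Over all genes tested 26.4% were called higher and 23.1% lower, so the 4 higher calls were not far above the share of all genes. Pmepa1, a TGF-beta feedback inhibitor, rose by 0.73 ± 0.12, Tgif1, a SMAD corepressor, by 0.85 ± 0.17 and the ubiquitin ligase gene Smurf1 by 0.46 ± 0.12, while Smurf2 fell by 0.37 ± 0.11. Smad2, Smad3, Smad4 and Smad7 lay between 0.05 and 0.12 and were not called. The SMAD list depends on the scaling, since total-count scaling called 11 of 12 higher and Smurf2 no longer lower. Skil, a SMAD corepressor, was called lower with alkali in oxalate mice (-0.61 ± 0.16, adjusted p = 0.0347), a call lost in the fit of those 2 groups alone (adjusted p = 0.138) and without library 12, 3 or 40 of the untreated or 30 or 8 of the alkali-treated group.

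All 15 TGF-beta target genes listed were called higher in oxalate without alkali, with a median log2 change of 2.44, and all 15 again on alkali, with a median of 1.62. The shares of all genes called higher were 26.4% and 23.4%. Timp1, a protease inhibitor, rose by 4.73 ± 0.46, Tgfbi, a matrix protein gene, by 2.24 ± 0.22, Inhba, the activin A subunit, by 3.04 ± 0.37 and Col3a1, a fibrillar collagen, by 3.33 ± 0.40. Alkali in oxalate mice came with a value below 0 for 15 of 15, with a median of -0.70, and 2 were called lower, against 2.33% of all genes. This was not particular to the list. None of 8 macrophage markers (median -1.02) and none of 6 injured tubule markers (median -1.68) lay above 0. Podocyte markers lay above 0 for 5 of 6 and endothelial markers for 8 of 8. The comparison shares the untreated oxalate libraries with the first one. Inhba fell by 1.51 ± 0.33 (adjusted p = 0.0155), from 1.48 to 5.08 CPM without alkali to 0.758 to 1.41 CPM with it. No gene of the list was called in the fit of the 2 oxalate groups alone (adjusted p = 0.125 for Inhba), and 8 were called without the 6 libraries with Adipoq above 1 CPM. The call of Inhba was also lost without library 12 of the untreated oxalate group. The count of 2 was 5 without library 32 of that group, 0 without library 12, and 1 without library 3 or 40 of that group or 2, 30 or 5 of the alkali-treated one.

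**Figure D3:**
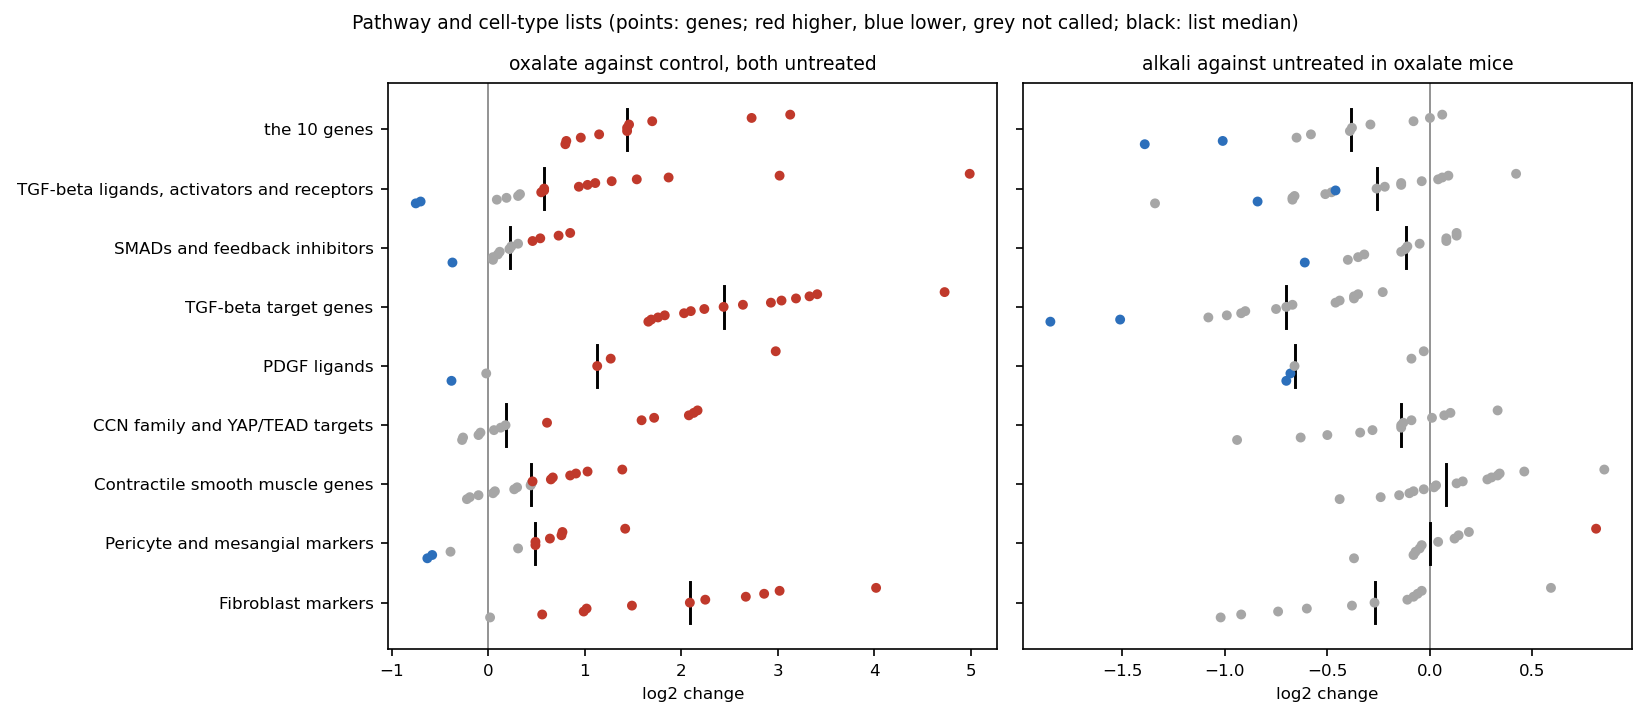
Log2 change of each tested gene by list in 2 comparisons, with list medians as black lines; red, blue and grey mark genes called higher, called lower and not called. In untreated oxalate all 15 TGF-beta target genes are red, and with alkali in oxalate mice all 15 lie below 0 with 2 blue.

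Ccn1 showed the clearest difference between the oxalate groups. Ccn1, named Cyr61 in older annotation (chromosome 3, 145646976 to 145649981, minus strand), read 41.0, 38.6, 39.2, 63.9 and 50.7 CPM in untreated controls and 29.1, 71.0, 35.3, 30.5 and 31.7 CPM in alkali-treated controls. Untreated oxalate libraries read 120, 100.1, 61.9, 59.4 and 67.5 CPM and alkali-treated ones 30.1, 35.8, 26.9, 32.8 and 30.7 CPM. The alkali-treated oxalate libraries were the tightest group for this gene and lay below all untreated oxalate libraries, overlapping the alkali-treated controls and reaching lower. Its log2 change was 0.81 ± 0.23 (adjusted p = 0.00746) for oxalate without alkali. On alkali it was -0.34 ± 0.23 (adjusted p = 0.253), and -0.02 without library 27 of the alkali-treated controls. With alkali in oxalate mice Ccn1 stood at 0.382 of the untreated level (95% interval 0.271 to 0.538, log2 change -1.39 ± 0.24, adjusted p = 0.00455). That call held under each of the 29 alternatives run, with adjusted p from 2.7e-06 to 0.0187. Whether alkali acted differently in oxalate and control mice was tested as an interaction, which for Ccn1 was -1.15 ± 0.33 (unadjusted p = 0.00244, adjusted p = 0.423). Across the alternatives it ran from -1.35 to -0.83. The log2 change of Ccn1 with alkali in control mice ran from -0.56 to -0.06 and was never called. The interaction called 0 of all genes, 1429 of which had an unadjusted p under 0.05, while DESeq2 called 15 and limma-voom 0, none of them among the 10 genes.

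The Ccn1 promoter is shown because Ccn1 carries the clearest difference and is a textbook YAP and TEAD target. The 250 bases before its start hold 1 TEAD match, a motif that 14.7% of all windows hold. The match lies 103 bases before the start, in capitals, read on the opposite strand. A SMAD match lies 3 bases into the transcript, as 49.6% of all windows hold somewhere, and no CArG box or AP-1 match was found (7.81% of windows hold the latter).
Ccn1 promoter, chr3:145649986-145650235, minus strand, 5′ to 3′: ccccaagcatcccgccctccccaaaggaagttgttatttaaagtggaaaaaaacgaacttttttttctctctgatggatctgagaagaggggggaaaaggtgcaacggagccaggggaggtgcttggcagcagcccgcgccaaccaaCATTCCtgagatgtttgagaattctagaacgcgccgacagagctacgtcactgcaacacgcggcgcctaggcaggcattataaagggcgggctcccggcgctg
Of the other windows, that of Pdgfra and 1 of the 2 of Postn held a SMAD match alone, and those of Vim and Tgfb1 held none of the motifs.

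Ccn2, named Ctgf in older annotation and long used as a readout of TGF-beta (chromosome 10, 24595442 to 24598683, plus strand), read 72.6, 109, 64.4, 68.1 and 92.0 CPM in untreated controls. Alkali-treated controls ranged from 72.1 to 95.4 CPM. Those with oxalate but no alkali read 184, 207, 97.3, 104 and 199 CPM and alkali-treated ones 87.6, 108, 71.9, 116 and 144 CPM. The untreated oxalate libraries fell into 3 high and 2 low values, the low ones within the control range. The log2 change was 0.96 ± 0.22 (adjusted p = 0.00122) without alkali and 0.34 ± 0.21 (adjusted p = 0.21) on alkali, with an interval there from 0.927-fold to 1.72-fold. Between the oxalate groups it was -0.58 ± 0.21 (adjusted p = 0.125), and -0.71 (adjusted p = 0.042) without library 32 of the untreated oxalate group.

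Among 13 tested genes of the CCN family and of the YAP and TEAD pathway, 6 were called higher and 0 lower without alkali (median log2 change 0.18). Over all genes tested the shares were 26.4% higher and 23.1% lower without alkali, and 23.4% and 17.1% on alkali. Axl, a receptor kinase, rose by 2.08 ± 0.26, Ankrd1, a muscle ankyrin repeat gene, by 2.17 ± 0.32, Tead2 by 1.72 ± 0.26 and Ccn3 by 2.13 ± 0.33. Yap1 (0.13 ± 0.07), its partner Wwtr1 (-0.10 ± 0.07) and Tead1 (-0.27 ± 0.12) were not called. The same 13 gave 6 higher and 0 lower calls on alkali and 0 calls between the oxalate groups, where Ankrd1 stood at -0.94 ± 0.31 (adjusted p = 0.0845). Between the latter, 1 gene was called lower under total-count scaling, DESeq2 or limma-voom, without library 19 of the untreated controls or 32 of the untreated oxalate group, or without the 6 Adipoq libraries. Total-count scaling raised the first count to 10. The count of lower calls without alkali was 2 without library 32 of the untreated oxalate group or without the 6 Adipoq libraries, and 1 with DESeq2, with no filter, or without library 19 of the untreated controls or 2 of the alkali-treated oxalate group. On alkali it was 2 without that library 2, and 1 with RLE scaling, with DESeq2 or without library 32 or 40 of the untreated oxalate group.

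Fn1, Postn and Vim are the matrix and cytoskeletal members. Fn1, for fibronectin, the matrix protein that cells lay down early in scarring (chromosome 1, 71585520 to 71653200, minus strand), ranged from 19.95 to 30.7 CPM in untreated and from 21.1 to 38.2 CPM in alkali-treated controls. Untreated oxalate libraries read 279, 217, 96.2, 138 and 368 CPM and alkali-treated ones 65.1, 113, 196, 145 and 180 CPM. Every oxalate library lay above every control library. Its log2 change was 3.13 ± 0.33 (adjusted p = 9.67e-07) without alkali and 2.33 ± 0.32 (adjusted p = 8.37e-05) on alkali. Between the oxalate groups it was -0.65 ± 0.30 (adjusted p = 0.232), with an interval from 0.41-fold to 0.989-fold, and -0.38 without library 40 of the untreated oxalate group.

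Vim, for vimentin, an intermediate filament of mesenchymal cells, leukocytes and endothelium (chromosome 2, 13573927 to 13582826, plus strand), ranged from 26.5 to 34.02 CPM in untreated and from 25.3 to 38.9 CPM in alkali-treated controls. Untreated oxalate libraries read 238, 191, 99.9, 133 and 338 CPM and alkali-treated ones 45.1, 79.1, 118, 118 and 136 CPM. All oxalate libraries were above all controls, and the 2 oxalate groups overlapped. The log2 change was 2.73 ± 0.29 (adjusted p = 9.73e-07) without alkali and 1.69 ± 0.28 (adjusted p = 0.000303) on alkali. With alkali in oxalate mice Vim stood at 0.496 of the untreated level (95% interval 0.333 to 0.738, log2 change -1.01 ± 0.28, adjusted p = 0.0434). This call was close to the threshold and held under 12 of 29 alternatives. Leaving out library 13, 35 or 9 of the untreated controls, 1, 27, 37 or 7 of the alkali-treated ones, 12, 3 or 40 of the untreated oxalate group, or 2, 30 or 5 of the alkali-treated oxalate group ended it. Without library 40 of the untreated oxalate group the log2 change was -0.73 (adjusted p = 0.129), and in the fit of the 2 oxalate groups alone the adjusted p was 0.241. The interaction for Vim was -1.04 ± 0.39 (unadjusted p = 0.0147, adjusted p = 0.478).

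Postn, for periostin, a matricellular protein of activated fibroblasts (chromosome 3, 54361109 to 54391037, plus strand), had the lowest level of the set in each group. It had the largest coefficient of variation of the set in 3 of the 4 groups, from 64.3% to 96.9%, but not in alkali-treated controls, where it was 35.5% against 44.9% for Ccn1. It read 0.889, 1.57, 7.12, 1.46 and 2.11 CPM in untreated controls and 1.53 to 3.41 CPM in alkali-treated ones. Oxalate libraries without alkali read 7.68, 5.43, 3.20, 4.63 and 14.9 CPM and alkali-treated ones 2.34, 3.66, 18.3, 4.43 and 5.32 CPM. Control library 26 and alkali-treated oxalate library 33 stood far above the other 4 of their groups, and each oxalate group overlapped its controls. The log2 change was 1.44 ± 0.57 (adjusted p = 0.0433) without alkali, 1.67 ± 0.58 (adjusted p = 0.0287) on alkali and -0.08 ± 0.55 (adjusted p = 0.955) between the oxalate groups. The first value rested on single libraries, being 0.94 (adjusted p = 0.186) without library 40 of the untreated oxalate group and 2.24 (adjusted p = 0.0027) without library 26 of the untreated controls. It was also not called without library 13, 19, 35 or 9 of the untreated or 37 of the alkali-treated controls, or 12 of the untreated oxalate group. The second was 0.89 (adjusted p = 0.181) without library 33 of the alkali-treated oxalate group, and was not called without library 1, 27, 37 or 7 of its controls. The third was -0.86 (adjusted p = 0.288) without library 33, 0.38 (adjusted p = 0.771) without library 40 and -1.04 (adjusted p = 0.0673) without the 6 Adipoq libraries, so neither its direction nor its size was settled. Control library 26 and oxalate library 33 also held 29.7 and 35.4 CPM of Adipoq, a fat cell gene, and the part of fat tissue in these values was not tested.

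Per kilobase of exon, the order of the genes differed between groups. The length used was that of all annotated exons of a gene merged, and it is the same in each group. The order of genes within a group depends on that length, and other lengths were not tried. In untreated controls Ccn2 had the highest mean level, 28.4 ± 6.58 CPM per kb (SD, n = 5), ahead of Ccn1 at 23.1 ± 5.35, Acta2 at 21.8 ± 2.85 and Tagln at 18.1 ± 5.17, neighbours that lay within 1 SD of each other. Pdgfrb at 7.27 and Vim at 6.34 came next, then Fn1 at 2.15, Pdgfra at 2.05, Tgfb1 at 1.54 and Postn at 0.302. In untreated oxalate libraries Ccn2 was still highest at 55.3 ± 18.6, followed by Tagln at 49.9 ± 14.9. Vim moved up to 42.1 ± 19.8, ahead of Ccn1 at 40.5 ± 13.4 and Acta2 at 38.0 ± 10.7, and Fn1 moved up to 18.8 ± 9.31. The SDs of the 5 highest genes there overlap, so their order is not resolved.

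Ratios of counts within a library were compared for 3 pairs of related genes, which were chosen after their values were seen. Acta2 over Tagln was 0.762 to 0.926 in untreated oxalate libraries and 1.01 to 1.22 in alkali-treated ones, with no overlap (log2 difference 0.42, exact two-sided permutation test p = 0.00794, the smallest possible with 5 against 5). Ccn1 over Ccn2 was 0.339 to 0.655 and 0.213 to 0.374 in the same groups (exact permutation p = 0.0238). Pdgfra over Pdgfrb was 0.559 to 0.769 and 0.472 to 0.616 (exact permutation p = 0.0317). After adjustment over the 12 tests made, the adjusted p was 0.0635 for all of these, so none passed the threshold.

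**Figure D4:**
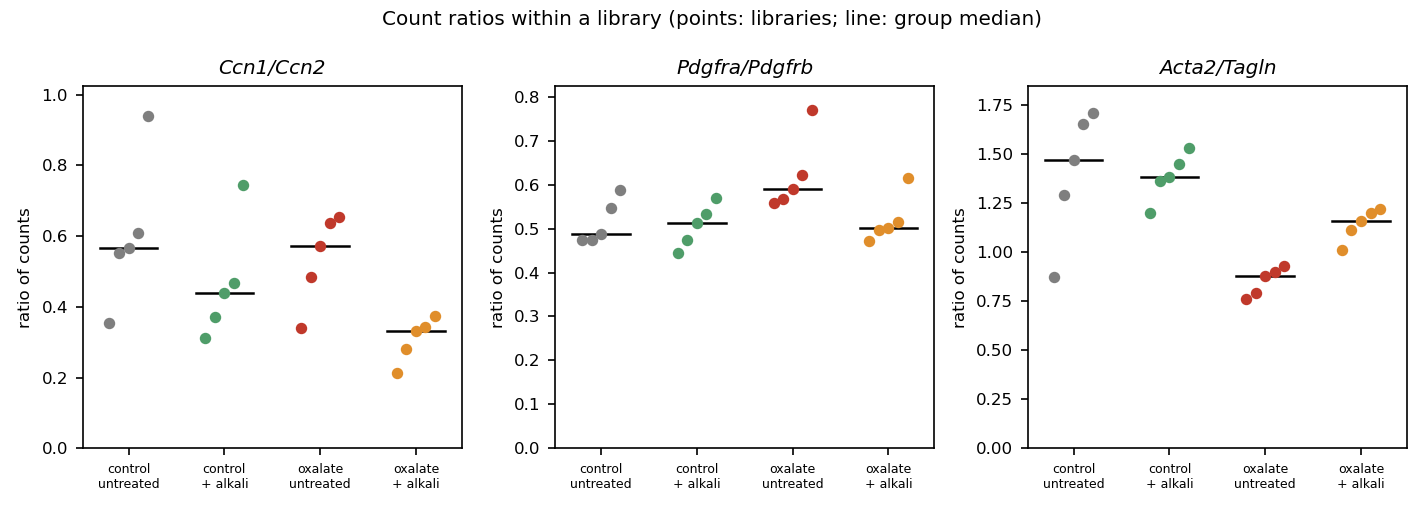
Ratio of counts of 3 gene pairs within each library, by group, with group medians as lines (linear axes from 0). For Acta2 over Tagln the untreated oxalate libraries lie at 0.762 to 0.926 and the alkali-treated ones at 1.01 to 1.22.

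Across the 20 libraries, the profiles of Pdgfra and Pdgfrb lay closest to each other of all pairs in the set, with a root mean square distance of 0.18 in centred log2 CPM, followed by Acta2 and Pdgfrb at 0.19 and Tagln and Tgfb1 at 0.24. Ccn1 and Fn1 were farthest apart, at 1.35. Among the other genes tested, Nid1, of the basement membrane protein nidogen, was nearest to Pdgfrb (0.09, where the median gene lay at 0.67), Mmp14 nearest to Fn1 (0.18, median 1.43) and Dysf nearest to Acta2 (0.15, median 0.60). For Tagln the nearest was Irf8, a transcription factor of myeloid cells (0.15), for Tgfb1 it was Efemp2, a matrix gene (0.17), and for Vim it was Vsir (0.18), ahead of the collagen gene Col1a2 (0.19). Nearest to Ccn1 were Dnajb4 at 0.35 and the early response gene Ier3 at 0.37. These distances share the libraries, the group differences and the scaling, and describe likeness only.

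Libraries differed within groups in a way common to most of the set. Library 40 of the untreated oxalate group was highest for 7 of the 10 genes and library 32 lowest for 9. In the alkali-treated oxalate group library 2 was lowest for 8 genes and library 33 highest for 5. Macrophage marker genes followed the same libraries. All 8 markers, Lyz2, Adgre1 and Csf1r among them, were called higher in untreated oxalate, against 26.4% of all genes. Their summed level was 118 to 157 CPM in untreated controls and 669 to 2731 CPM in untreated oxalate libraries. It was 264 to 847 CPM in alkali-treated oxalate libraries, and it was lowest in libraries 32 and 2 and highest in 40 and 33. Lyz2, with a mean of 956 CPM in untreated oxalate libraries, was the largest part of the sum there. Between the oxalate groups 2 of the 8 markers were called lower, and 7 without library 32 but 0 without 12, 40 or 30. Summed tubule markers ran the other way, lowest in libraries 40 and 33 and highest in 32 and 2. Kap made up the largest part of that sum, with means of 36300 CPM in untreated controls and 19700 CPM in untreated oxalate libraries. Of the 8 tubule markers, Kap, Lrp2 and Slc34a1 were called lower in oxalate without alkali and the other 5 were not called. The sum of 11 fibroblast markers was 67.1 to 86.1 CPM in untreated controls, 140 to 402 CPM in untreated and 120 to 281 CPM in alkali-treated oxalate libraries, again lowest in libraries 32 and 2 and highest in 40 and 33. No marker of either list was at 0 in any group, and their part in the changes of the 10 genes was not tested.

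Of the 11 fibroblast markers tested, 10 were called higher and 0 lower in oxalate without alkali (median log2 change 2.09), with Thy1 at 2.86 ± 0.35, Mfap5, of the elastic fibre microfibrils, at 4.02 ± 0.56, Col14a1 at 0.99 ± 0.16 and the proteoglycan gene Dcn at 2.09 ± 0.34. On alkali 9 were called higher, and between the oxalate groups 0 were called, with a median of -0.27 and 1 of 11 above 0. Pericyte and mesangial markers were mixed, with 6 of 10 higher and 2 lower. Gucy1a1, a subunit of the nitric oxide receptor, rose by 1.42 ± 0.25 and Mcam by 0.76 ± 0.18, while Abcc9 fell by 0.58 ± 0.16 and Ren1, the renin gene, by 0.63 ± 0.21. The falls of Abcc9 and Ren1 were not called under total-count scaling. Ren1 was the only gene of this list called between the oxalate groups, higher by 0.81 ± 0.21 (adjusted p = 0.0307), a call lost in the fit of those groups alone (adjusted p = 0.193) and without library 12 or 40 of the untreated or 30 or 8 of the alkali-treated group. Endothelial markers gave 2 higher calls of 8 without alkali and 8 of 8 on alkali, podocyte markers 6 of 6 in both, and injured tubule markers 6 of 6 in both. Beside these marker counts, 26.4% of all genes were called higher and 23.1% lower without alkali, and 23.4% and 17.1% on alkali. Without the 6 Adipoq libraries the podocyte counts were 4 without alkali and 5 on alkali. The injured tubule count on alkali was then 5, as with limma-voom. The endothelial count of 2 was 6 under total-count scaling, 4 without library 32 and 0 without library 40 of the untreated oxalate group; it was 1 with no filter or without library 13, 19 or 35 of the untreated controls, 37 of the alkali-treated ones, or 12 or 3 of the untreated oxalate group. The count of 8 on alkali was 5 without library 8 of the alkali-treated oxalate group. Between the oxalate groups 4 of the 6 injured tubule markers were called lower, and 0 in the fit of those groups alone. Vcam1, which injured tubule cells and endothelium carry, fell by 1.42 ± 0.25 and Sox9 by 2.02 ± 0.41.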

How the data were processed

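Per the labels' protocols, libraries came from poly(A) RNA and a stranded TruSeq kit. The authors deposited whole-number read counts per Ensembl mouse gene, not normalized. The submitters' processing notes list bcl2fastq 2.19, Trimmomatic, STAR 2.7.1, featureCounts and edgeR, and a human build, GRCh38.p5, for these mouse genes, which leaves the build used open. GENCODE M21 (GRCm38) supplied symbols and positions; 25664 of 25700 identifiers were found there, and the remainder held at most 0.0226% of any library's counts.

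Groups follow the sample titles. The low-count filter was filterByExpr of edgeR 4.0.16 in R 4.3.3 with its minimum count at 10 (15430 genes kept, 10270 removed). TMM factors scaled the 20 libraries, and edgeR's robust quasi-likelihood test compared the 4 group means in a single fit, with Benjamini-Hochberg adjustment over all genes tested and calls at 0.05. An SE is the log2 change divided by the square root of F. The common biological coefficient of variation was 0.2, and the lowest count of a member was 21, for Postn.

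The members and gene lists were chosen with earlier results of these data known. The text names all members, per list up to 4 genes with the smallest p in a comparison, and up to 3 nearest profiles per member by root mean square distance (log2 CPM, prior count 2). Other names (Itgb6, Itgb8, Pdgfd, Yap1, Wwtr1, Tead1, Myh11, Cnn1, Smtn, Lmod1, Mylk, Actg2, Ren1, the SMADs not called) were chosen after their values were seen. Alternatives were RLE and total-count scaling, no filter, a filter of 1 CPM in 5 libraries, DESeq2 1.42.0, limma-voom (limma 3.58.1), no robust option, the 2 compared groups alone, each library left out, and the 6 libraries with Adipoq above 1 CPM left out. Applying them to the list counts, and the ratio tests, were choices made after the data were seen. The fitting code was tested on simulated data. 1 gene of the TGF-beta target list enters the counts but is not reported here by its values.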

Additional observations from a re-analysis of the deposited data

Results flagged for a closer look

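Of the 40 sets of 5 libraries, 1 per gene and group, 4 held a library far from the other 4 by Dixon's criterion (a gap to the nearest value above 0.71 of the range), where chance gives about 1 in 20. Pdgfra stood at 98.4 CPM in library 40 of the untreated oxalate group, against at most 52.5 CPM in the other 4. Ccn1 stood at 71 CPM in library 27 of the alkali-treated controls, against at most 35.3 CPM in the others. Postn stood at 7.12 CPM in library 26 of the untreated controls and at 18.3 CPM in library 33 of the alkali-treated oxalate group, against at most 2.11 and 5.32 CPM in the others. The last 2 libraries are also those with the most Adipoq of their groups, 29.7 and 35.4 CPM, and the part of fat tissue in these values was not tested.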

How the results depend on the processing

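No paired analysis was possible because the groups share no replicate numbers. The counts of members called higher in oxalate, without and on alkali, stayed within 1.5 times their value under every alternative, and no call of a member changed direction. Of 290 member values compared without alkali 281 kept their call and 9 lost it, and on alkali 283 kept it and 7 lost it, all 16 of them values of Postn. The count of members called lower with alkali in oxalate mice was 2, and 1 under total-count scaling, without a filter, with limma-voom and in the fit of the 2 groups alone; leaving out single libraries gave 1 to 3. All 17 lost calls in that comparison were of Vim, and 1 call was gained, Ccn2 without library 32 of the untreated oxalate group. The number of all genes called there, 630, was 29 with the 2 groups alone, 1198 with DESeq2, 1263 without the 6 Adipoq libraries and 185 to 1160 with single libraries left out; on alkali 6237 genes became 3219 without the Adipoq libraries. Total-count scaling moved the median log2 change of all genes by 0.30 without alkali and 0.24 on alkali, and the share of calls that were higher from 53.3% to 85.1% and from 57.8% to 85.6%. The cause of these shifts was not tested.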
